A study of Mus musculus with 3 samples.

Results

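Podocytes are the epithelial cells that wrap the capillaries of the glomerulus, and 8 genes for transcription factors tied to them, Wt1, Tcf21, Foxc1, Foxc2, Foxd1, Lmx1b, Dach1 and Zeb1, are described here in adult mouse renal corpuscle. The 8 were taken by name, not by their signal, from 19938 genes with a probe set that names them alone. Each of them had 1 such probe set and no other. The study itself names Wt1, Tcf21 (as Pod1), Foxc2, Foxd1, Dach1 and Zeb1 among the transcription factors expressed in sorted podocytes. Detection of these genes here is therefore not independent evidence. The study profiled 3 samples of renal corpuscle, the capillary tuft with its capsule, as part of a larger effort to define what podocytes express. All 3 came from wild-type adult male CD-1 mice, an outbred stock, aged 7 to 9 weeks, with no transgene, treatment or second group. Each sample pooled about 2 kidneys, which were digested with collagenase A and passed through filters down to 40 µm, and the RNA was amplified once before hybridisation to an Affymetrix gene array. Nothing in the labels ties the pools to separate litters or collection days, and part of their spread may be technical.

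No cells were sorted, so the arrays can hold RNA of any cell that the sieving kept. Detection, defined below, held for 58.9% of all genes. Markers of podocytes were detected in 16 of 16 cases, of endothelial cells in 12 of 12 and of mesangial cells in 8 of 8. Proximal tubule markers were detected in 9 of 10 cases and distal tubule markers in 5 of 8. Smooth muscle markers were detected in 5 of 6 cases, fibroblast markers in 4 of 7 and immune markers in 6 of 9. Markers of the parietal cells of the capsule gave mixed values, with 6 of 7 detected and a median height over the list of 0.44 log2. Cd24a was at 12.98 log2, 6.05 above background, Ncam1 was 0.75 above, and Krt18 was not detected. With a stricter background, the 99th percentile of the receptor probe sets described below, 2 of these 7 were called, Cd24a and Ncam1, so RNA of the capsule was not clearly shown. With that background the podocyte, endothelial, mesangial, smooth muscle and distal tubule counts did not change. The counts fell to 6 for proximal tubule, 4 for immune and 3 for fibroblast markers. The name "podocyte transcription factors" therefore rests on what is known of the genes and cannot be checked by cell type in these data. In such bulk samples, fewer cells of a type and less RNA per cell cannot be told apart.

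Podocytes arise from mesenchyme that turns into epithelium, and the factors that guide them fall into several protein families. Wt1 is a zinc finger protein needed to form the kidney and to keep podocytes mature. Tcf21 is a basic helix-loop-helix (bHLH) protein, Foxc1, Foxc2 and Foxd1 carry a forkhead domain, and Lmx1b is a LIM homeodomain protein whose loss in people causes nail-patella syndrome with kidney disease. Dach1 is a corepressor related to Ski that in other tissues works with Eya proteins and the homeobox proteins of the Six2 family, and Zeb1 is a zinc finger and homeobox repressor of epithelial genes.

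All 8 genes were detected, and 5 of them, Wt1, Tcf21, Foxc2, Foxd1 and Zeb1, exceeded a linear signal of 1000 on every array. Detected means that the log2 signal lay above a background level in a one-sided limma test over all genes with Benjamini-Hochberg adjustment. That level was the 95th percentile, per array, of the signals of 1210 olfactory or vomeronasal receptor probe sets, or linear signals of 119, 124 and 121 on replicates 1, 2 and 3. Of all genes 58.9% were detected. A linear signal above 1000 was held by 7.59% of genes, one above 500 by 17.2% and one above 150 by 51.3%. The 3 signal levels are those that the study used as a filter, as a rough limit for in situ hybridisation and as a mark of very high expression, on the scale of its own summary method. The 8 genes lay a median of 3.89 log2 above background, beside 0.37 for all genes and 1.29 for all detected genes.

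A feature of the deposited values governs how their error can be read. Wt1, Foxc1, Foxc2, Lmx1b, Dach1 and Zeb1 each hold the same value on all 3 arrays to every decimal, as do 44.0% of detected genes. For these 6 genes the SD over arrays is 0 and is not a measurement of their error. The limma p-values inherit this and are not printed. The height above background of such a gene varied by an SD of 0.029 log2 (n = 3), which is the variation of the background level alone. Levels were not ranked between genes, because every probe set has its own affinity.

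**Figure D1:**
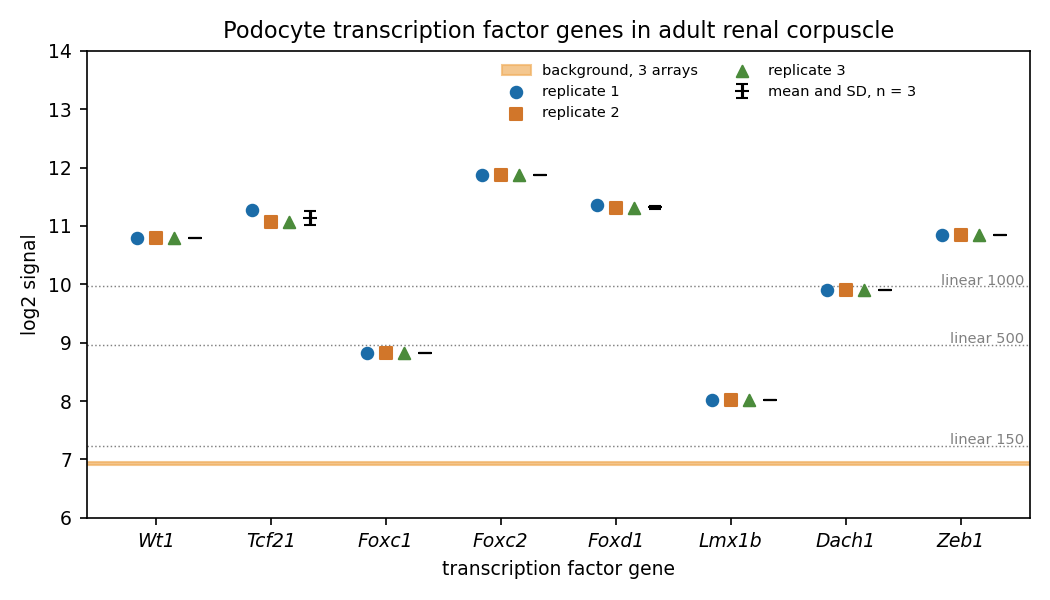
log2 signal (vertical axis) of the 8 transcription factor genes (horizontal axis) on each of 3 arrays; the mean with its SD (n = 3) is drawn in black, an orange band covers the 3 background levels and dotted lines mark linear signals of 150, 500 and 1000. All points lie above the band, those of Lmx1b at 8.02, and only Tcf21 and Foxd1 show points that differ between arrays.

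Wt1 stood at 10.79 log2 on each of the 3 arrays, a linear signal of 1776 and 14.6 times the background level. None of the 1210 receptor probe sets reached the level of Wt1, nor of any other of the 8 genes save Foxc1 and Lmx1b. RNA of genes for proteins known to bind or modify Wt1 was detected as well. Wtap, which was found as a Wt1 partner and is part of the RNA methylation complex, had 10.80, 10.70 and 10.80 log2 on replicates 1, 2 and 3. Wtip, a LIM domain protein that shuttles between cell junctions and the nucleus, was at 8.59, and Basp1, a corepressor of Wt1, at 8.47. Pawr, which binds the zinc fingers of Wt1, had 9.74, 9.61 and 9.84.

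Of 11 analysed genes reported as regulated by Wt1, 11 were detected and 4 exceeded a signal of 1000, beside 58.9% and 7.59% of all genes. The list was not split by the direction of regulation, and whether Wt1 acted on these genes was not tested. The 4 were Nphs1, which encodes nephrin of the slit diaphragm, at 10.80 ± 0.01 log2 (SD, n = 3), Podxl, the sialomucin of the podocyte surface, at 12.33 on every array, Cdkn1c, an inhibitor of the cell cycle, at 12.44 ± 0.10, and the growth factor gene Vegfa at 11.02 ± 0.09. Sulf1, a sulfatase that edits heparan sulfate, was at 9.98 ± 0.08 and Scel at 8.62 ± 0.11. Bcl2 lay 1.95 log2 above background, Igf1r 1.63 and Pdgfa 1.48. Pax2, an early nephron factor that Wt1 is known to repress, lay 0.26 above background, and Spry1, a brake on receptor signalling, 0.23. Pax2 and Spry1 lost their call when background was raised to the 99th percentile of receptors, and the other 9 kept theirs.

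Tcf21, also called Pod1, was 1 of the 2 genes whose arrays differed. Its log2 signals were 11.27, 11.06 and 11.06 on replicates 1, 2 and 3, linear signals of 2472, 2132 and 2132, with a mean of 11.13 ± 0.12 (SD, n = 3). Replicate 1 was 0.21 log2, or 1.16 times, above the mean of the other arrays, which share 1 value. That SD was exceeded by 11.0% of detected genes. The median SD was 0.033 among detected genes with 2 different values, as Tcf21 has, and 0.094 among those with 3. Tcf21 binds DNA as a dimer with E proteins, and the 3 genes of that family were detected: Tcf4 at 9.64 ± 0.02, Tcf12 at 9.38 ± 0.04 and Tcf3 at 7.65 on every array, 0.72 above background.

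The bHLH relatives of Tcf21 lay close to background. Of 9 genes 7 were detected, beside 58.9% of all genes, none above a signal of 500, with a median height of 0.21 log2. Scx, a tendon factor, was at 8.18 on every array, Twist1 at 7.42 and Hand1 at 7.40 ± 0.01. Msc, a close relative of Tcf21, had 6.81, 6.83 and 6.76 and was not detected, nor was Hand2 at 6.93. Against the stricter 99th percentile level, Scx alone of the 9 was called, while Tcf21 lay 3.57 log2 above that level.

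The forkhead genes Foxc1 and Foxc2 encode closely related proteins that act in kidney and vessel development. Foxc2 held 11.88 log2 on all 3 arrays, a linear signal of 3763 and 31.0 times background. Foxc1 held 8.83 on all 3 arrays, a linear signal of 454, and lay 1.90 log2 above background. It exceeded 150 but not 500. Of the receptor probe sets that set the background, 2 of 1210 (0.165%) had a mean at or above that of Foxc1. Foxc1 is also known in endothelial and mesenchymal cells.

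Foxd1, a forkhead gene known best as a marker of the renal stroma, was the only one of the 8 with 3 different values. Its log2 signals were 11.35, 11.31 and 11.30 on replicates 1, 2 and 3, with a mean of 11.32 ± 0.02 (SD, n = 3) and a linear signal of 2554. The arrays lay within 0.05 log2 of each other, and replicate 1 was 0.04 above the mean of the others. The SD of 0.023 was below the median SD of 0.094 among detected genes with 3 different values. The height above background was 4.39 ± 0.05 log2. Other factors of the stroma and the mesangium gave mixed values: 7 of 9 were detected, with Meis2 at 10.69 ± 0.11, Gata3, a mesangial and collecting duct factor, at 10.11 ± 0.08 and Ebf1 at 10.01 ± 0.01, whereas the stromal factors Tbx18 at 5.71 and Prrx1 at 5.99 lay below background on every array.

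Other forkhead genes were mostly near background. Of 40 analysed 20 were detected, beside 58.9% of all genes, with a median height of 0.06 log2, and 1 of them exceeded 1000. That gene was Foxn3, a widely expressed repressor, at 11.35 ± 0.04 log2 (SD, n = 3). Foxj3 was at 9.24 and Foxo1, a target of insulin signalling, at 9.15 on every array. Foxa1, Foxa2 and Foxa3, factors of liver and other endoderm, were not detected. Foxd2, Foxd3 and Foxd4, other genes of the Foxd group named after their values were seen, were at 6.81, 6.60 and 6.62, also not detected. Foxi1 of intercalated cells and Foxp3 of regulatory T cells, which also stand in the tubule and immune lists below, were at 6.79 ± 0.08 and 7.05 ± 0.01. With the 99th percentile of receptors 11 of 40 remained detected, and Foxc1, Foxc2 and Foxd1 lay 1.27, 4.32 and 3.76 log2 above that level.

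**Figure D2:**
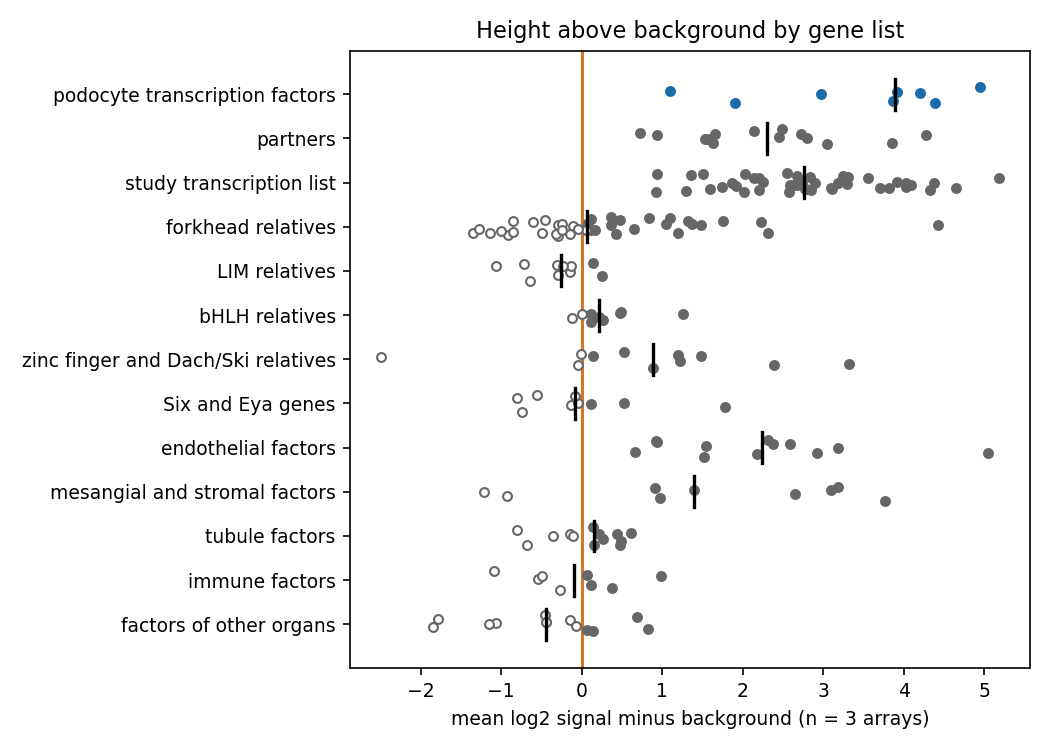
Mean log2 signal minus background (horizontal axis, n = 3 arrays) of each gene in 13 lists (rows); detection is shown by filling, undetected genes are hollow, and medians of lists (black) and background (orange) are drawn as lines. The 8 podocyte factors, in blue, lie between 1.09 and 4.95, with a median of 3.89. The medians of forkhead, LIM and bHLH relatives lie at 0.06, -0.26 and 0.21, and their highest genes at 4.43, 0.25 and 1.26. Zinc finger and Dach/Ski relatives, endothelial factors and the study transcription list have medians of 0.89, 2.24 and 2.76. Their highest genes lie at 3.32, 5.04 and 5.18, within or above the range of the 8.

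Lmx1b, which patterns the limb as well as the podocyte, held 8.02 log2 on all 3 arrays, a linear signal of 259, and lay 1.09 above background, or 2.13 times. Of 1210 receptor probe sets 5 (0.413%) had a mean at or above it. With the 99th percentile of receptors its height was 0.46 log2, and it was still detected. Of 10 LIM homeobox relatives 2 were detected, beside 58.9% of all genes, Lhx6 at 7.18 and Lhx4 at 7.07, and with the 99th percentile none was. With the median of receptors, a lower level, all 10 were called. Lhx1, an early nephron factor, lay at 6.28, and Isl1 at 6.69, 6.69 and 6.93.

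Genes for the adaptor proteins that LIM homeodomain factors need were detected. Ldb2 had 11.28, 11.14 and 11.19 log2 on replicates 1, 2 and 3, and Ldb1 had 9.95, 9.99 and 9.98. Ldb2 is also known in endothelial cells. The 3 analysed genes reported to respond to Lmx1b in podocytes were detected too, beside 58.9% of all genes. Cd2ap, which links the slit diaphragm to actin, was at 12.24 ± 0.13 log2 (SD, n = 3), and the basement membrane collagen genes Col4a3 and Col4a4 were at 9.26 and 8.71 on every array.

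Dach1 held 9.90 log2 on all 3 arrays, a linear signal of 954, just under 1000, and lay 2.97 above background. Its relative Dach2 lay at 4.43 on every array, 2.49 below background. The relatives Ski and Skil, which encode corepressors of Smad signalling, were detected at 8.41 and 8.15 ± 0.02. Of 9 analysed genes of the Eya and Six2 families, with which Dach proteins act in other tissues, 3 were detected, beside 58.9% of all genes. Eya3 held 8.71 on every array, a height of 1.78 log2, Eya4 had 7.41, 7.51 and 7.41, and Six6 had 7.02, 7.02 and 7.08. Six2, a factor of nephron progenitors, held 6.37, Six3 6.88, Six4 6.12, Eya1 6.80 and Eya2 6.19, and Six5 was at 6.84 ± 0.02, all undetected. With the 99th percentile of receptors only Eya3 remained, and with the median of receptors all 9 were called.

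Dach1 is known to restrain the cell cycle gene Ccnd1 and the growth factor response gene Jun. Ccnd1 had 10.39, 10.39 and 10.41 log2 on replicates 1, 2 and 3. Jun had 9.44, 9.73 and 9.82, and Jun can also respond to tissue handling. Whether these genes and Dach1 were expressed in the same cells was not tested. The corepressor gene Sin3a, a Dach1 partner, held 9.07 on every array, and Hdac3 had 7.90, 7.75 and 7.90.

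Zeb1 held 10.84 log2 on all 3 arrays, a linear signal of 1829 and 15.0 times background. Its paralog Zeb2 held 10.25, and the related repressor gene Snai2 had 9.51, 9.19 and 9.25. Snai3 and the zinc finger gene Egr2 were not detected, at 6.88 and 6.92. The genes of corepressors that Zeb1 recruits, Ctbp1 and Ctbp2, were at 8.55 and 8.45 ± 0.04. Endothelial and mesangial cells are also known to make Zeb1 and Zeb2, and their part in these signals was not tested.

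Genes that Zeb1 is known to act on lay on both sides of background. Of 6 analysed 3 were detected, beside 58.9% of all genes. Vim, the mesenchymal intermediate filament, was at 11.49 ± 0.07 log2 (SD, n = 3), a height of 4.57. Cdh1, which encodes E-cadherin, held 7.37 on every array, 0.44 above background, and Crb3, a polarity gene, held 7.15, 0.22 above. Epcam at 6.45, Cldn7 at 6.82 and Cdh2 at 6.86 ± 0.04 were not detected. When the stricter 99th percentile level was used Vim was the only one called, and Cdh1 and Crb3 lay -0.19 and -0.41 log2 from that level.

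The sequences just before the start of Crb3 and Epcam are shown because both hold the letters that Zeb1 is known to prefer. The motif searched was CACCTG on both strands, a form of the general E-box CANNTG and therefore overlapping with it. Windows of 250 bases before each start came from RefSeq on GRCm38.p6, in the direction of the gene, and capitals mark each match.
Crb3 (chr17:57061951-57062200, plus strand): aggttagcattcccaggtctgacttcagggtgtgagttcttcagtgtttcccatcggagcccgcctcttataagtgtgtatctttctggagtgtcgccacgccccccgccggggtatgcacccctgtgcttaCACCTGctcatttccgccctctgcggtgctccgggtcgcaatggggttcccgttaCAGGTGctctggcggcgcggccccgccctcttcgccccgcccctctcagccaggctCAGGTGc
Epcam (chr17:87635729-87635978, plus strand): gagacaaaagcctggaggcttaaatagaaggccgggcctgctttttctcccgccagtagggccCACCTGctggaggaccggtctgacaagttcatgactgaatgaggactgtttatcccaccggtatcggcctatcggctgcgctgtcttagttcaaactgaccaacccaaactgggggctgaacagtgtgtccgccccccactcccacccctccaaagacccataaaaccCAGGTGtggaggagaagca
Crb3 has matches at -118, -63 and -7 from its start and Epcam at -187 and -19. Windows were listed for 4 of the Zeb1 genes. Those of Crb3, whose 2 windows overlap and hold the same matches, of Epcam and 1 of the 2 of Cldn7 held the motif, and the other of Cldn7 and that of Vim did not. Of all 32851 windows 17.2% held it. A match describes letters and is not a site of binding.

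Windows of the same kind were listed for 5 of the 8 factors themselves, Tcf21, Foxc1, Foxd1, Lmx1b and Dach1. Each was searched on both strands for a Wt1 type zinc finger element (GCGNGGGNG), a forkhead element (GTAAACA), the E-box, the Zeb1 form of it and a LIM homeodomain element (TAATTA). Of all windows 10.5%, 3.17%, 66.2%, 17.2% and 4.84% held them, in that order. The 3 windows with a match are shown, with the matches in capitals, because their letters are what the search found.
Foxc1 (chr13:31806396-31806645, plus strand): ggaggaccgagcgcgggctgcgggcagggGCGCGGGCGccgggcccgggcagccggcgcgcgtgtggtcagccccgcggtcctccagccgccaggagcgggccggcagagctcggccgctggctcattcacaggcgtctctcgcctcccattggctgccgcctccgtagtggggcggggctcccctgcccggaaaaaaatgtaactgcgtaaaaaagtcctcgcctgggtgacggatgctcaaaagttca
Foxd1 (chr13:98353995-98354244, plus strand): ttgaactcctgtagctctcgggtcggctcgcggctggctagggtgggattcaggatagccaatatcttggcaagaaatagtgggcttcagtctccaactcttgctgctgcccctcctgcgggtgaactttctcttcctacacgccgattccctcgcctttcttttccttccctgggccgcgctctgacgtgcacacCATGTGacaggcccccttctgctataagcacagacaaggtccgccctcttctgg
Lmx1b (chr2:33641099-33641348, minus strand): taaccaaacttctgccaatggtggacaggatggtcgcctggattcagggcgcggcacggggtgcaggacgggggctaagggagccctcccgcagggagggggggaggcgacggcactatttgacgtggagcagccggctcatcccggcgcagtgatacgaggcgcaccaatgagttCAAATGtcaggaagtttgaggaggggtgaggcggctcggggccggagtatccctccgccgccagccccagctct
Foxc1 held the zinc finger element GCGCGGGCG at -221. Foxd1 held an E-box, CATGTG, at -54 and Lmx1b held one, CAAATG, at -74. The windows of Tcf21 and Dach1 held none of these letters. GC content was 70.8% for Foxc1, 65.2% for Lmx1b, 57.2% for Foxd1, 54.8% for Dach1 and 52.4% for Tcf21, and the median of all windows was 52.4%.

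Factors of other cell types gave a frame for these values, beside the 58.9% of all genes that were detected. Of 12 endothelial factors 12 were detected, with a median height of 2.24 log2, among them the hypoxia factor gene Epas1 at 11.96 ± 0.02 (SD, n = 3), Fli1 at 10.11 on every array and Ets1 at 9.84 ± 0.01. Of 13 tubule factors 8 were detected, none above a signal of 500, with a median height of 0.15 log2. Irx3 and Irx2 held 7.53 and 7.42 on every array and Hnf4a, a proximal tubule factor, 7.40. With the 99th percentile of receptors none of the 13 remained. Of 8 immune factors 4 were detected, with Cebpa at 7.90 ± 0.14, and Spi1, a macrophage factor, was not at 6.43. With the 99th percentile 1 of these 8 was called, Cebpa, and with the median of receptors 8 were. Of 13 factors of organs such as muscle, brain and gut 4 were detected (30.8%, beside 58.9% of all genes), Nkx2-5 at 7.74, Sox10 at 7.61 ± 0.07, Myod1 at 7.07 and Nanog at 6.99, with a median height of -0.45.

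Arrays of the 8 genes were next set beside the markers of the cells in the corpuscle. Tcf21 and Foxd1, the genes that varied, were both highest on replicate 1, and the other 6 did not vary. Of all 11734 detected genes 2456 (20.9%) were highest on replicate 1 and 1253 (10.7%) were lowest there, so the lean of Tcf21 and Foxd1 was shared by many genes. Of 16 podocyte markers 8 were highest on replicate 1 and none was lowest there. Genes with 1 value on all arrays can be neither, and they were 3 of these 16 but 44.0% of all detected genes. The share among the markers is therefore not directly comparable with that of all genes. Cd2ap had 12.38, 12.22 and 12.12 log2 and Cdkn1c 12.56, 12.39 and 12.38. The summed linear signal of the podocyte markers was 39666, 36920 and 37055 on replicates 1, 2 and 3. Podxl, like Wt1, held 1 value throughout.

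Markers of other cell types differed on replicate 1 in both directions. Genes with 1 value on all arrays can be neither highest nor lowest there. They were 2 of 12 endothelial, 3 of 8 mesangial, 1 of 9 detected proximal tubule and 1 of 5 detected smooth muscle markers. The counts below are therefore not directly comparable with the shares of all genes. Of 12 endothelial markers 6 were highest and 1 was lowest on replicate 1, with sums of 25802, 24538 and 25059, while the sialomucin gene Emcn had 12.86, 12.84 and 12.86 log2, the Vegfa receptor gene Kdr 11.73, 11.73 and 11.69 and the phosphatase gene Ptprb 11.26, 11.21 and 11.21. Of 8 mesangial markers none was highest and 3 were lowest on replicate 1, with sums of 20921, 21605 and 21738, and among them Itga8 held 11.73 and Sfrp2 12.30 log2 throughout and Ptn had 12.65, 12.65 and 12.61. Of 9 detected proximal tubule markers 7 were lowest there, with sums over the list of 4191, 4984 and 4571. Kap had 10.47, 10.78 and 10.58 log2, Gatm 9.65, 9.72 and 9.72 and Cyp2e1 8.96, 9.32 and 9.07. Of 5 detected smooth muscle markers 3 were lowest there, with sums over the list of 3218, 3721 and 4357, and Acta2 on replicate 1 differed by -0.90 log2 from the mean of the other arrays, Myl9 by -0.31 and Smtn by 0.01. In that list Cnn1 was not detected, and in the proximal tubule list Cubn was not. The part of these shifts in the difference of 0.21 log2 for Tcf21 was not tested, and 3 arrays allow no correlation.

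**Figure D3:**
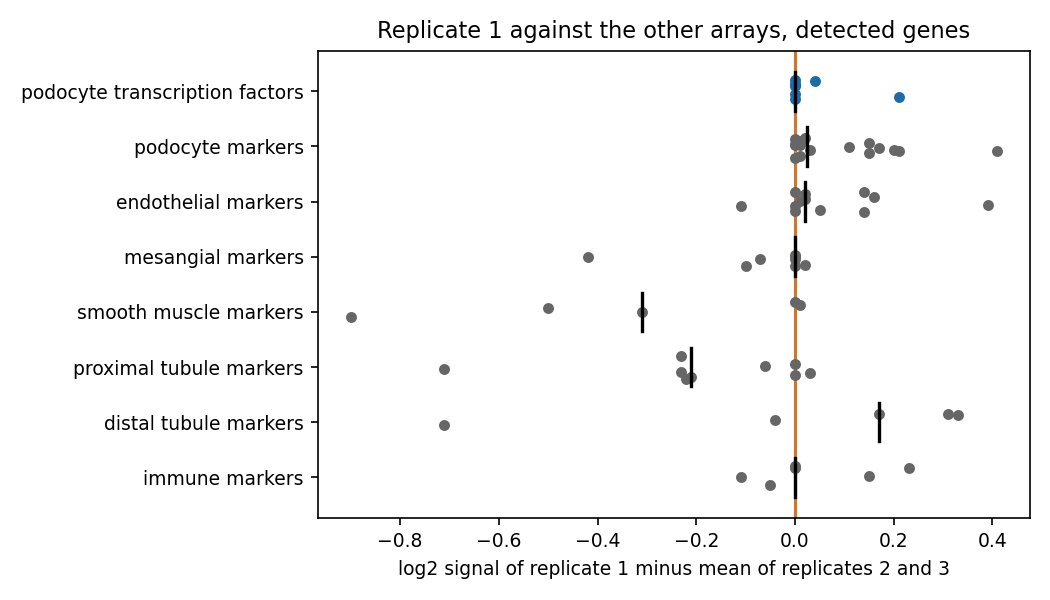
log2 signal of replicate 1 minus the mean of replicates 2 and 3 (horizontal axis) for detected genes in 8 lists (rows); medians are black and an orange line stands at 0. Of the transcription factors, in blue, 6 lie at 0, Foxd1 at 0.04 and Tcf21 at 0.21, while podocyte markers reach 0.41 and smooth muscle markers -0.90.

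The height of each factor depended on how background was set, and the call did not. Over the alternatives that were tried, the height of Foxc2 ran from 4.32 to 6.50 log2, of Foxd1 from 3.76 to 5.94, of Tcf21 from 3.57 to 5.75, of Zeb1 from 3.28 to 5.46 and of Wt1 from 3.23 to 5.42. Dach1 ran from 2.34 to 4.52 and Foxc1 from 1.27 to 3.45. Lmx1b ran from 0.46 to 2.64. A change of background moved all 8 heights alike. All 8 were detected under every alternative, and all 8 also lay above background on each array when no test was used, beside 59.1% of all genes.

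**Figure D4:**
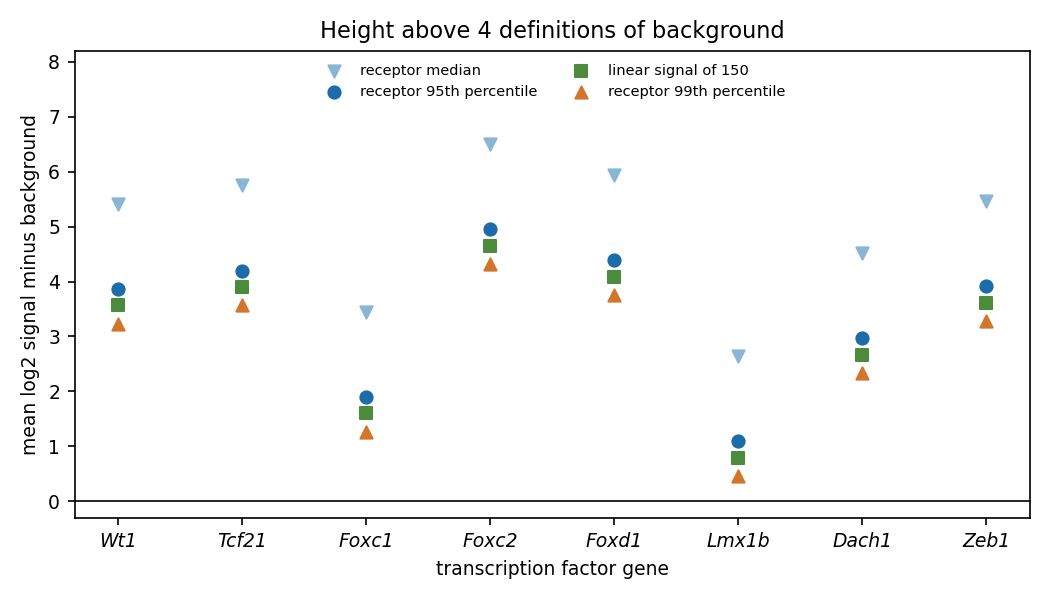
Mean log2 signal minus background (vertical axis) of the 8 transcription factor genes (horizontal axis) for 4 definitions of background, the median, 95th and 99th percentile of receptor probe sets and a fixed linear signal of 150. Every point lies above 0, including that of Lmx1b with the 99th percentile at 0.46.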

How the data were processed

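The authors deposited 1 table of log2 signals for 35557 probe sets on 3 arrays, with no column of other samples. Affymetrix Expression Console is named in the notes of the submitters on processing, and the method and settings behind the table are not given in the sources used here. Medians of 7.11, 7.11 and 7.09 were found on the arrays, which were used as they stood. Linear signals undo the log2. Arrays give no depth, and their number limits the precision.

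Names came from the platform's annotation, where 21789 probe sets with 1 symbol gave 19938 genes. A gene took its probe set of highest mean log2 signal. Detection was tested with limma 3.58.1 in R 4.3.3 (lmFit with an intercept, eBayes with a trend, one-sided, Benjamini-Hochberg adjusted p under 0.05). On simulated data of 19938 genes the test recovered 40% of genes set 0.1 log2 above background and 100% of those set 0.25 or more above. The simulated noise had an SD of 0.05 log2, was independent between arrays and held no ties. The deposited values hold many ties, so these rates do not describe the test on them.

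The genes, lists and tests were chosen with earlier results of these data known. The genes named are the 8 factors, every analysed gene of the Eya and Six2 families and of the lists of genes regulated by Wt1, Lmx1b, Zeb1 and Dach1, and, in the other lists described, genes taken from the 3 detected ones of highest signal and up to 3 undetected ones in alphabetical order, not all of which are printed. That choice ranks no expression. Wtip, Basp1, Pawr, Tcf3, Tcf4, Tcf12, Ctbp1, Ctbp2, Sin3a, Hdac3, Skil, Nanog, Foxd2, Foxd3, Foxd4, Hoxc4, Hoxc6 and Hoxc8 fall outside that rule and were named after their values were seen. Listed genes without a value were not analysed here. The study's transcription list was drawn from sorted podocytes. Protein sequences were not used here.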

Additional observations from a re-analysis of the deposited data

How the results depend on the processing

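No paired analysis was possible because there is only 1 group. The count of 8 detected factors, of 6 above a signal of 500 and of 5 above 1000 was the same under every alternative run: the 99th percentile or the median of receptors or a fixed signal of 150 as background, quantile normalization, the mean or lowest probe set, genes above the median level only, no trend, and each replicate left out. The counts above 500 and 1000 do not use the background or the trend, so those alternatives could not change them. Each factor has 1 probe set, so taking the mean or lowest probe set could not change its values. For the 6 factors with tied values, leaving out a replicate could not change the signal. With the median of receptors as background 18024 of all genes were detected, beside 11734, because that level is lower. Without 1 replicate the count of all genes ran from 11392 to 11855. The rule of lying above background on each array, with no test, and quantile normalization of the array differences were chosen after seeing the data. They gave 8 factors and 11778 genes, and replicate 1 differed from the other arrays by 0.20 for Tcf21 and 0.02 for Foxd1. Over all alternatives 273 counts of detected list genes stayed within 1.5 times and 27 did not: forkhead relatives ran from 11 to 40, tubule factors from 0 to 13, immune factors from 1 to 8 and factors of other organs from 1 to 11. The tied values leave the error of 6 factors unmeasured.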

Other observations

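Of 46 other genes in the study's list of transcription related genes with elevated podocyte expression, 44 were analysed and 44 were detected, with a median height of 2.76 log2 above background, and 17 exceeded a linear signal of 1000. Among all genes 58.9% were detected and 7.59% exceeded 1000. The study drew that list from probe sets enriched in sorted adult podocytes over total kidney cortex or over embryonic podocytes. Detection of the list here is therefore not independent evidence. Txnip, a brake on glucose uptake, was at 12.11 ± 0.02 log2 (SD, n = 3), Polr2l, a subunit of RNA polymerases, at 11.57 ± 0.09 and the kinase gene Nlk at 11.30 ± 0.02. The homeobox genes Hoxc8, Hoxc6 and Hoxc4, named after their values were seen, had means of 8.79 ± 0.15, 8.96 ± 0.02 and 8.21 ± 0.03. On replicate 1, where Tcf21 and Foxd1 were highest, 20 of the 44 were also highest and 7 were lowest, beside 20.9% and 10.7% of all detected genes. Genes with 1 value on all arrays can be neither, and they were 6 of the 44 but 44.0% of all detected genes. These shares are therefore not directly comparable.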
